A study of Mus musculus with 5 samples.

Results

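Cell-to-cell adhesion genes were examined in mouse embryonic stem (ES) cells that lack C3G, as 10 genes named for their place in adherens junctions and desmosomes: the cadherins Cdh1, Cdh2, Cdh3 and Cdh13, the catenins Ctnnb1, Ctnna1, Ctnnd1 and Jup, and the desmosomal genes Dsp and Dsg2. They were taken by symbol, with no expression value in the rule, from 55147 gene symbols, and all 10 were among the 12518 genes with a TPM (a read abundance corrected for transcript length and set to one total per sample) of at least 1 in at least 2 samples. The WT group held 3 RNA sequencing samples of E14Tg2a, a feeder-independent mouse ES cell line. The C3G KO group held 2 samples of E14Tg2a cells in which CRISPR had been used to swap exons 2 to 4 of Rapgef1, the gene of the Rap1 exchange factor C3G, for a puromycin resistance cassette. Both groups grew on gelatin in medium with serum and LIF, and the comparison asks what the loss of C3G changes in ES cells kept under self-renewal conditions. Which clone or clones gave the C3G KO samples was not stated, and the samples are called independent without word on whether they were separate cultures, so p-values measure the spread between these samples. Read numbers were not part of the TPM values, and the depth of each sample is unknown.

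Classical cadherins are calcium-dependent receptors that bind the same cadherin on a neighbouring cell, and their tails hold catenins that link the contact to actin. Desmosomes use the relatives desmoglein and desmocollin, which plakoglobin, plakophilins and desmoplakin tie to intermediate filaments. ES cells hold together mainly through E-cadherin, and the beta-catenin bound there is the same protein that carries Wnt signals to the nucleus.

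Rapgef1, the targeted gene (chromosome 2, 29619720 to 29740978, GRCm38), had 11.6, 10.3 and 9.64 TPM in WT 1, WT 2 and WT 3, and its C3G KO values were 3.92 and 5.55 TPM. The genotypes did not overlap. The paper reports that its C3G KO clones still made transcripts with the 3' exons, so the summed TPM is only a partial check of the labels. After scaling, the log2 fold change was -0.41 (limma adjusted p = 0.00444), and once transcript length and GC content were corrected for, as described below, it was -0.11 and missed the threshold (limma adjusted p = 0.239). The smooth trend of that correction was fitted with a single setting, and how far the value depends on it was not tested. The annotated transcript ENSMUST00000091146 held 23.1%, 16.0% and 17.0% of the gene's TPM across WT and 5.61% and 5.23% across C3G KO. The largest share was that of ENSMUST00000102872, with 49.0%, 46.4% and 43.9% in WT and 50.3% and 52.6% in C3G KO. ENSMUST00000147488 held 16.5%, 26.7% and 29.6% in WT and 36.2% and 33.2% in C3G KO. Its scaled TPM overlapped between the groups, at 1.43, 2.25 and 2.58 in WT and 2.30 and 2.03 in C3G KO.

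The ES cell identity of both groups was checked with 8 markers, all of which passed the filter. Their summed TPM was 2223, 2345 and 2295 in WT and 1771 and 2311 in C3G KO, with Dppa5a the most abundant. After scaling, the sums were 1665, 1922 and 2079 in WT and 2862 and 2551 in C3G KO, so the direction turned with the scale, and 1 of the 8, Dppa5a, was higher in C3G KO by limma, beside 14.1% of all tested genes, a call that was lost without WT 1, WT 2 or either C3G KO sample. With length and GC content corrected, 2 of the 8 were higher, Dppa5a and Esrrb, beside 16.7% of all tested genes. With a replicate block added to that correction, Esrrb alone stayed higher, and it is named here after its values were seen. Pou5f1, the gene of Oct4, had 357, 371 and 400 TPM in WT and 230 and 298 TPM in C3G KO, and after scaling 268, 304 and 362 in WT and 371 and 329 in C3G KO (log2 fold change 0.18, limma adjusted p = 0.413, not past the threshold). Markers of other cell types were low: 8 fibroblast and mesenchyme genes summed to 6.39, 5.76 and 4.60 TPM in WT and 1.81 and 2.99 TPM in C3G KO, with Thy1 the most abundant in WT. Pdgfra of that list went the other way, with 0.470, 0.390 and 0.5 TPM in WT and 0.750 and 1.49 TPM in C3G KO, and was under the filter. The 8 extraembryonic endoderm genes summed to 4.97, 4.44 and 3.86 TPM in WT and 3.64 and 7.09 TPM in C3G KO, led by Dab2. After scaling these sums were 3.72, 3.64 and 3.50 in WT and 5.88 and 7.83 in C3G KO, without overlap, and Dab2 was higher (log2 fold change 0.69, limma adjusted p = 0.0247), the one gene of that list that passed the filter. Its value was 0.40 without C3G KO 2 and 0.97 without C3G KO 1, and the call was lost without WT 1 and without WT 2. On the TPM as deposited Dab2 was at 0.22 and did not pass (limma adjusted p = 0.325). The 8 trophoblast genes, led by Tfap2c, summed to 26.5, 23.2 and 19.9 TPM in WT and 6.80 and 10.9 TPM in C3G KO. After scaling, these sums were 19.8, 19.0 and 18.0 in WT and 11.0 and 12.0 in C3G KO, without overlap. Tfap2c was called lower by limma, but not without WT 2. The scaled fibroblast and mesenchyme sums did not overlap either, at 4.79, 4.72 and 4.17 in WT and 2.93 and 3.30 in C3G KO. The 8 mesoderm and neural genes, led by Tubb3, summed to 25.4, 22.0 and 22.3 TPM in WT and 16.9 and 23.2 TPM in C3G KO. After scaling, the mesoderm and neural sums were 19.1, 18.0 and 20.2 in WT and 27.3 and 25.7 in C3G KO, carried by Tubb3 (log2 fold change 0.93, limma adjusted p = 0.00342), while T was lower (-1.15, limma adjusted p = 0.00254). On the TPM as deposited Tubb3 was at 0.28 and did not pass (limma adjusted p = 0.315). Of the genes of these lists that passed the filter, Col1a1, Cdx2, Krt7, Ascl2 and Neurod1 did so through WT samples alone, so counts of their tests are not given. No gene of these marker lists was at 0 in every sample. Their part in the results on adhesion genes was not tested, and in bulk RNA fewer cells of a type and less RNA per cell cannot be told apart.

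In C3G KO cells, 8 of the 10 adhesion genes were lower than in WT after median-of-ratios scaling, led by Dsp, the gene of desmoplakin. Cdh1, the gene of E-cadherin, and Ctnnb1, the gene of beta-catenin, did not pass the limma test on that scale. Over all tested genes, 2083 (16.6%) were lower and 1760 (14.1%) were higher in C3G KO. The 10 genes had a median log2 fold change of -0.58, beside 0.0052 over all genes tested. Both C3G KO samples lay below all WT samples for 9 of the 10 genes after scaling, which held for 29.3% of all tested genes. Cdh2 and Cdh13 passed the filter through WT samples alone, since neither reached 1 TPM in a C3G KO sample, so levels high in WT are what brought them into the test. Without them 6 of 8 were lower, with a median of -0.58. By this rule, added after the values were seen, genes with at least 1 TPM in a sample of each group were 11138 in all, and 13.9% of those were lower.

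The scale between the samples mattered for how many genes were counted. Protein-coding genes made up 31.8%, 31.3% and 28.8% of the TPM in WT 1 to 3, but 18.6% in C3G KO 1 and 26.0% in C3G KO 2, while small RNAs took most of the rest. On the TPM as deposited, 10 of the 10 adhesion genes were lower in C3G KO by limma, beside 56.8% of all tested genes lower and 1.45% higher (7109 and 181 genes). On that scale the medians were -0.55 over all genes tested and -1.19 over the 10 adhesion genes, as log2 fold changes. Both C3G KO samples lay below all WT samples in 10 of 10 adhesion genes and in 75.7% of all tested genes. Setting the protein-coding TPM to one total gave 3732 lower and 707 higher genes. Median-of-ratios scaling divided the samples by 1.34, 1.22 and 1.10 in WT and by 0.619 and 0.906 in C3G KO, and changes below refer to it unless named otherwise.

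Transcript length was the other property that moved with the comparison. Across all tested genes, which are not independent replicates, the log2 fold change had a Spearman correlation of -0.31 with transcript length. The 10 adhesion genes are long, with a median TPM-weighted transcript length of 4219 bases against 2187 bases for all tested genes. With a smooth trend on length and GC content subtracted from each sample, the correlation was 0.028, and the same 8 adhesion genes were lower in C3G KO, beside 14.2% of all tested genes. The 10 genes then had a median of -0.46 as log2 fold change, beside 0.033 over all genes tested. Without Cdh2 and Cdh13, 6 of 8 were lower after this correction, with a median of -0.40. Of all genes with at least 1 TPM in a sample of each group, 11.6% were then lower.

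**Figure D1:**
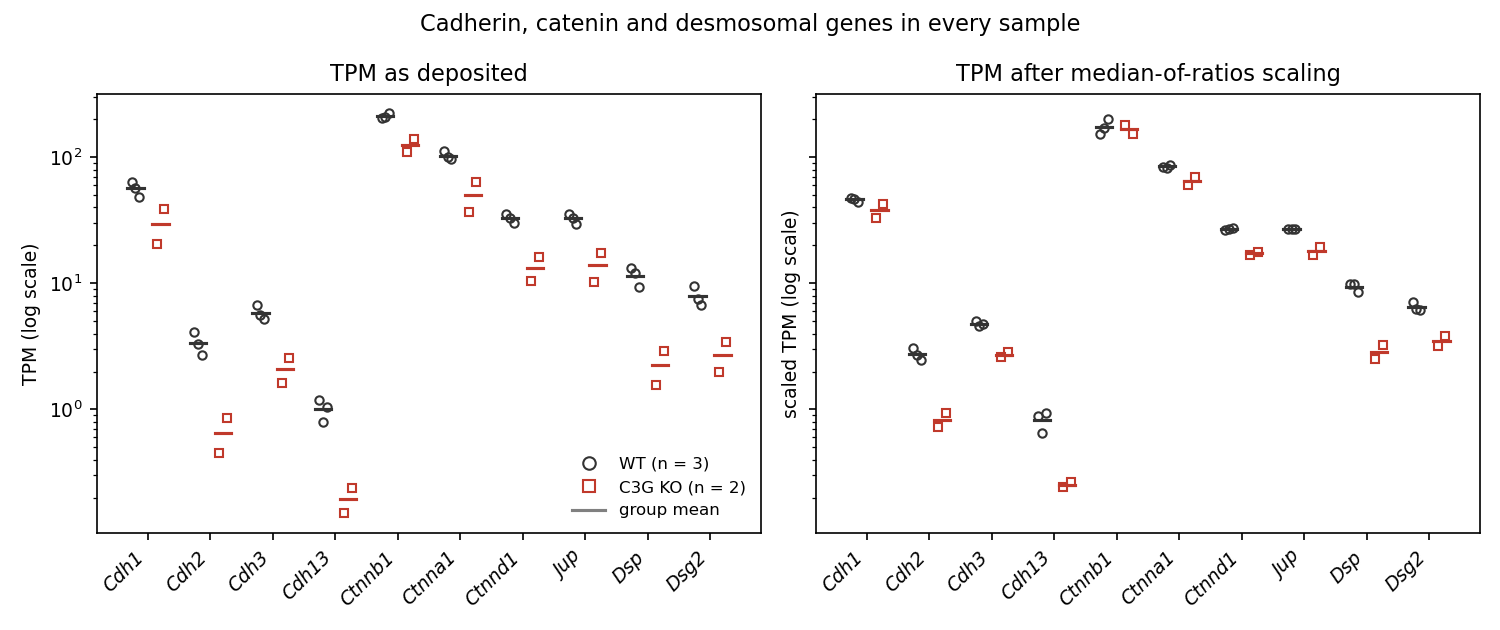
TPM of the 10 adhesion genes in each sample on a log scale, as deposited (left) and after median-of-ratios scaling (right), with WT as circles (n = 3), C3G KO as squares (n = 2) and a bar at each group mean. As deposited, both C3G KO samples are below all WT samples for 10 of 10 genes, and after scaling for 9 of 10, Ctnnb1 being the one that overlaps.

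The levels spanned a wide range. In WT, Ctnnb1 was the most abundant of the 10 genes with a mean of 211 TPM, followed by Ctnna1 with 103 TPM and Cdh1 with 56.7 TPM. Ctnnd1 and Jup came next with means of 32.9 and 32.8 TPM, and their WT ranges overlapped. Dsp had a mean of 11.5 TPM and Dsg2 one of 7.95 TPM, again with overlapping ranges. Cdh3 at 5.85 TPM, Cdh2 at 3.37 TPM and Cdh13 at 1.01 TPM were the lowest, with no overlap between neighbours. In C3G KO the order differed at the desmosomal genes, where Dsg2 had a mean of 2.72 TPM and Dsp one of 2.24 TPM, with overlapping ranges. Jup and Ctnnd1 also changed places there, at 13.9 and 13.3 TPM, and their ranges overlapped as in WT.

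Cdh1 encodes E-cadherin, the main classical cadherin of ES cells. It had 64.1, 57.5 and 48.6 TPM in WT 1, WT 2 and WT 3, against 20.4 TPM in C3G KO 1 and 38.9 TPM in C3G KO 2. After scaling, the values were 48.0, 47.1 and 44.0 in WT and 32.9 and 42.9 in C3G KO. C3G KO 2 lay under the lowest WT sample by less than the WT standard deviation of 2.08, and C3G KO 1 stood further down. The log2 fold change of -0.30 had a standard error of 0.12 and missed the threshold (limma adjusted p = 0.112, 95% interval -0.59 to -0.0022). Without C3G KO 2 the value was -0.48 and passed (limma adjusted p = 0.0302), and on the TPM as deposited it was -0.98 (limma adjusted p = 0.0019). It was -0.11 without C3G KO 1 (limma adjusted p = 0.434) and -0.15 with length and GC content corrected (limma adjusted p = 0.324). One transcript, ENSMUST00000000312, held between 97.9% and 99.1% of the gene's TPM in every sample, so the gene value was in effect that of 1 transcript.

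Cdh3 encodes P-cadherin, the classical cadherin of placenta and basal epithelia, and is the tandem neighbour of Cdh1 on chromosome 8 of GRCm38 (Cdh3 from 106510891 to 106557297, Cdh1 from 106603351 to 106670246). It had 6.70, 5.61 and 5.23 TPM in WT and 1.62 and 2.57 TPM in C3G KO. The C3G KO samples were both below every WT sample on either scale. Scaled TPM fell from 4.79 ± 0.214 (SD, n = 3) to 2.73 ± 0.154 (SD, n = 2), a log2 fold change of -0.63 (limma adjusted p = 0.00168). The gene has 1 annotated transcript. Relative to its neighbour in the same sample, the ratio of Cdh3 to Cdh1 TPM was 0.105, 0.0976 and 0.108 in WT and 0.0796 and 0.0661 in C3G KO.

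Cdh2 encodes N-cadherin, the classical cadherin of neural and mesodermal tissue. It had 4.09, 3.29 and 2.73 TPM in WT and 0.450 and 0.850 TPM in C3G KO. No C3G KO sample came near the lowest WT sample. Scaled TPM were 3.30-fold higher in WT, with 2.75 ± 0.298 (SD, n = 3) against 0.833 ± 0.149 (SD, n = 2) in C3G KO. The log2 fold change of -1.03 (limma adjusted p = 0.00116) is on the log2(TPM + 1) scale, which understates the change of a gene this low. Both protein-coding transcripts had lower means in C3G KO, with a mean scaled TPM of 0.914 in WT and 0.240 in C3G KO for ENSMUST00000025166 and of 1.37 and 0.418 for ENSMUST00000115850. With length and GC content corrected, the gene stood at -0.97 (limma adjusted p = 0.00101).

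Cdh13 encodes T-cadherin, an atypical cadherin that has no cytoplasmic tail, is held in the membrane by a GPI anchor and so binds no catenin. It had 1.18, 0.800 and 1.04 TPM in WT and 0.150 and 0.240 TPM in C3G KO. It was the least abundant of the 10 genes in both groups, and the groups did not overlap. Mean scaled TPM were 3.26-fold higher in WT, while the log2 fold change was -0.54 (limma adjusted p = 0.0114) and again understates a change at this level. Without C3G KO 1 or C3G KO 2 the call was lost, although the log2 fold change stayed about as large, at -0.53 and -0.55. The call was also lost with quantile normalization (log2 fold change -0.19, limma adjusted p = 0.297).

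Set against each other within a sample, where scaling cancels, the N-cadherin transcripts were the scarcer relative to E-cadherin in C3G KO. The ratio of Cdh2 to Cdh1 TPM was 0.0639, 0.0572 and 0.0562 in WT and 0.0221 and 0.0219 in C3G KO. The C3G KO samples lay close together here although Cdh1 itself differed between them. The ratio of Ctnnb1 to Cdh1, catenin per cadherin, was 3.17, 3.61 and 4.58 in WT and 5.46 and 3.57 in C3G KO, with overlap. For Cdh2 to Cdh1, the log2 difference of -1.42 had a p of 0.1 in a two-sided exact permutation test, the smallest that 3 against 2 samples allow, and an adjusted p of 0.16 over the 8 ratios tested by the exact test. None of the 8 ratios could pass 0.05 in this design.

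Ctnnb1 encodes beta-catenin, which binds the tail of classical cadherins and is the effector of canonical Wnt signalling. It had 203, 208 and 223 TPM in WT and 111 and 139 TPM in C3G KO. After scaling, the values were 152, 170 and 202 in WT and 179 and 153 in C3G KO, and the groups overlapped. The log2 fold change was -0.066 (95% interval -0.42 to 0.29, limma adjusted p = 0.762), so a fall or rise of the size seen for Ctnnd1 lay outside that interval. It turned positive without WT 3 (0.042) and without C3G KO 2 (0.048), and on the TPM as deposited it was -0.76 (limma adjusted p = 0.0164). The gene's TPM was spread over 15 annotated transcripts. The full-length ENSMUST00000007130 had 120, 117 and 74.9 TPM in WT and 53.1 and 102 TPM in C3G KO, and the retained-intron transcript ENSMUST00000215573 had 47.0, 46.6 and 72.0 TPM in WT and 28.2 and 27.6 TPM in C3G KO. After scaling both overlapped between the groups, and ENSMUST00000007130 had the higher mean in C3G KO (99.3, against 84.6 in WT). ENSMUST00000178812 went the other way between samples of one group, with 0 TPM listed in C3G KO 2 and 60.7 TPM in WT 3, where ENSMUST00000007130 was high and low, respectively. How TPM are shared among overlapping transcripts is an estimate, so the sum is the firmer value.

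Ctnna1 encodes alpha-E-catenin, which joins beta-catenin to actin. It had 112, 101 and 96.3 TPM in WT and 37.0 and 63.2 TPM in C3G KO. After scaling, the mean fell from 84.7 ± 2.33 (SD, n = 3) to 64.9 ± 7.02 (SD, n = 2), and the groups did not overlap. The log2 fold change was -0.38 (limma adjusted p = 0.0239), the smallest among the 8 genes that passed. The call was lost when any WT sample was left out (adjusted p from limma 0.0534, 0.0799 and 0.0589 without WT 1, WT 2 and WT 3) and without C3G KO 1 (limma adjusted p = 0.101). One transcript, ENSMUST00000042345, held 86.6%, 90.3% and 86.7% of the TPM in WT and 86.9% and 90.2% in C3G KO, so its share was alike in both groups. The ratio of Ctnna1 to Ctnnb1 was 0.553, 0.486 and 0.433 in WT and 0.334 and 0.456 in C3G KO, with overlap.

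Ctnnd1 encodes p120-catenin, which binds the membrane-near part of cadherin tails and keeps the receptors at the surface. It had 35.5, 32.7 and 30.3 TPM in WT and 10.5 and 16.2 TPM in C3G KO. Scaling brought the samples of each group close together, at 26.6, 26.8 and 27.5 in WT and 16.9 and 17.9 in C3G KO. The log2 fold change was -0.61 with a standard error of 0.063 (limma adjusted p = 0.0015). Of its 30 annotated transcripts, ENSMUST00000111670 held 28.7%, 27.0% and 30.9% of the TPM in WT and 19.3% and 18.7% in C3G KO, the one share without overlap among the 6 transcripts with a mean of at least 1 TPM in a group. ENSMUST00000066177 held 18.6%, 20.9% and 18.9% in WT and 18.0% and 19.0% in C3G KO, so its share overlapped. The ratio of Ctnnd1 to Cdh1 was 0.555, 0.569 and 0.624 in WT and 0.514 and 0.416 in C3G KO.

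Jup encodes plakoglobin (gamma-catenin), the close relative of beta-catenin and the one catenin found in both adherens junctions and desmosomes. It had 35.8, 32.9 and 29.6 TPM in WT and 10.4 and 17.6 TPM in C3G KO. The scaled values were almost equal among WT samples, at 26.8, 27.0 and 26.8, and were 16.7 and 19.4 in C3G KO. The log2 fold change was -0.55 (limma adjusted p = 0.00448), and with length and GC content corrected it was -0.34 (limma adjusted p = 0.0156). The ratio of Jup to Ctnnb1, the pair of related catenins, was 0.176, 0.158 and 0.133 in WT and 0.0932 and 0.127 in C3G KO. These ratios did not overlap, though C3G KO 2 lay just under WT 3 (p = 0.2, two-sided exact permutation test).

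Dsp encodes desmoplakin, the plaque protein that anchors intermediate filaments at desmosomes, and showed the largest fall of the 10 genes on the log2(TPM + 1) scale, under the main scaling, on the TPM as deposited and after the length and GC correction. As a fold of mean scaled TPM, its 3.28 stood beside 3.30 for Cdh2 and 3.26 for Cdh13. It had 13.2, 12.0 and 9.44 TPM in WT and 1.55 and 2.93 TPM in C3G KO. The highest C3G KO sample was far below the lowest WT sample. Scaled TPM fell from 9.42 ± 0.755 (SD, n = 3) to 2.87 ± 0.515 (SD, n = 2), and the log2 fold change was -1.43 with a standard error of 0.11 (limma adjusted p = 0.000516). Its transcripts are the longest of the 10 genes, with a weighted length of 8576 bases, and after the length and GC correction the log2 fold change was -1.16 (limma adjusted p = 0.000449). The long transcript ENSMUST00000124830 had 10.5, 9.48 and 8.09 TPM in WT and 1.21 and 2.03 TPM in C3G KO, and the shorter ENSMUST00000127906 had 1.48, 1.19 and 1.11 TPM in WT and 0.220 and 0.290 TPM in C3G KO, so neither splice form overlapped between the groups.

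Dsg2 encodes desmoglein 2, the desmosomal cadherin of simple epithelia and ES cells. It had 9.51, 7.59 and 6.74 TPM in WT and 1.99 and 3.44 TPM in C3G KO, with no overlap. The scaled mean fell from 6.48 ± 0.557 (SD, n = 3) to 3.51 ± 0.410 (SD, n = 2), a log2 fold change of -0.73 (limma adjusted p = 0.003). The full-length transcript ENSMUST00000059787 had 6.66, 5.91 and 4.56 TPM in WT and 1.19 and 2.33 TPM in C3G KO. Its share of the gene was 70.0%, 77.9% and 67.7% in WT and 59.8% and 67.7% in C3G KO, the rest being mostly the short ENSMUST00000121837. After the length and GC correction, Dsg2 had a log2 fold change of -0.63 (limma adjusted p = 0.00281). Plaque and receptor transcripts differed in proportion between these samples, by ratios that were not corrected for transcript length. The ratio of Dsp to Dsg2 was 1.39, 1.58 and 1.40 in WT and 0.779 and 0.852 in C3G KO, so that Dsp was the higher of the pair in each WT sample and the lower in each C3G KO sample. The ratio of Jup to Dsp moved the other way, from 2.71, 2.74 and 3.13 in WT to 6.68 and 5.99 in C3G KO. Both ratios gave p = 0.1 in the two-sided exact permutation test, the smallest it allows.

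**Figure D2:**
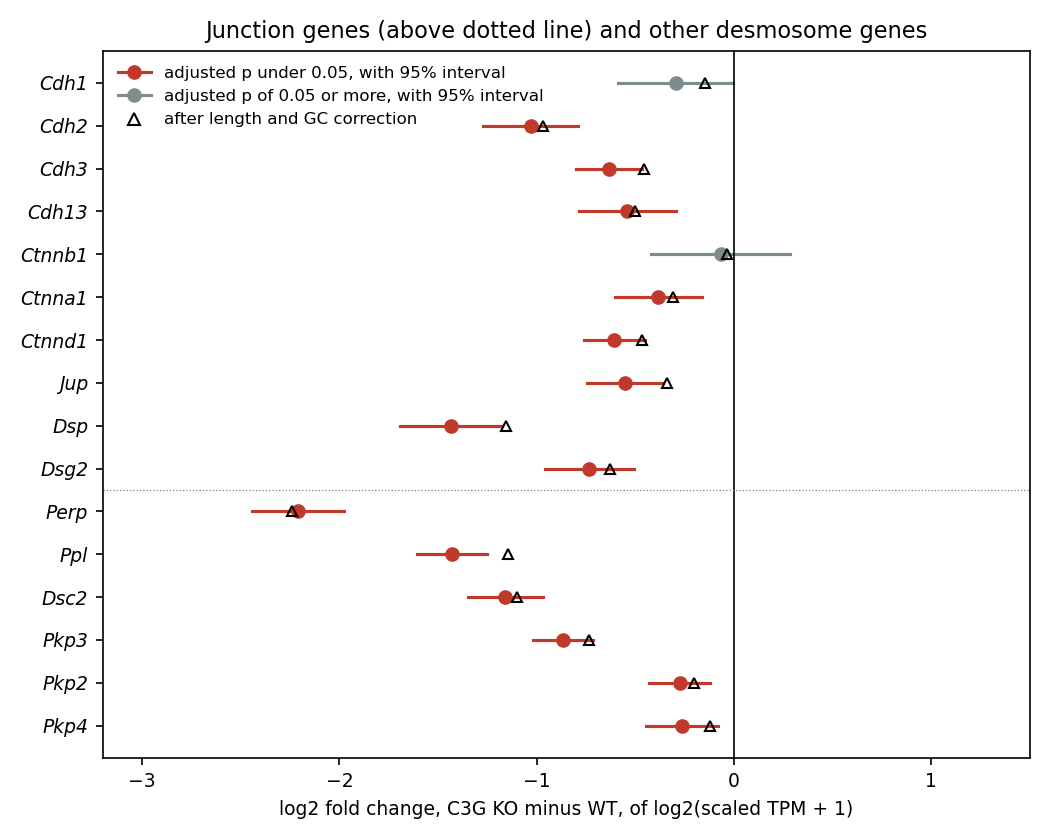
Log2 fold change (C3G KO minus WT, on the log2(scaled TPM + 1) scale) of the 10 adhesion genes, above the dotted line, and of the 6 other desmosome genes that passed the filter, with circles and 95% intervals from limma. Triangles give the value after the length and GC correction, and Cdh1 and Ctnnb1 are the ones drawn in grey because their adjusted p was 0.05 or more.

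Summed over the roles, the scaled TPM of the cadherins were 56.9, 55.1 and 52.2 in WT and 36.5 and 46.9 in C3G KO, and most of each sum was Cdh1. The catenins summed to 290, 307 and 343 in WT and 273 and 260 in C3G KO, which Ctnnb1 dominated. Dsp and Dsg2 together gave 17.0, 16.1 and 14.7 in WT and 5.72 and 7.03 in C3G KO. The groups did not overlap in any of these sums, which were not tested. The C3G KO samples also differed from each other in one direction: C3G KO 1 was below C3G KO 2 after scaling in 9 of the 10 adhesion genes, against 50.2% of all tested genes. C3G KO 1 was also the sample with the lowest protein-coding share of TPM, and the part of that share in these values was not tested.

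Of 15 other desmosome genes 6 passed the filter, and all 6 were lower in C3G KO by limma, beside 16.6% of all tested genes, with a median log2 fold change of -1.01. Without Ppl and Dsc2, which passed the filter through WT samples alone, 4 of 4 were lower, with a median of -0.57. Perp, a tetraspan protein that desmosomes need in epithelia, had 36.6, 37.2 and 34.0 TPM in WT and 3.81 and 4.61 TPM in C3G KO. Its log2 fold change of -2.21 (limma adjusted p = 0.000121) exceeded that of Dsp in size. Ppl, the gene of the plakin periplakin, had 3.93, 3.54 and 2.98 TPM in WT and 0.250 and 0.410 TPM in C3G KO, and Dsc2, the gene of desmocollin 2, had 2.24, 2.22 and 2.08 TPM in WT and 0.160 and 0.220 TPM in C3G KO. The plakophilins, which cluster desmosomal cadherins, moved less, with a log2 fold change of -0.87 for Pkp3 (limma adjusted p = 0.000484) and of -0.26 for Pkp4 (limma adjusted p = 0.0424), whose call the length and GC correction removed (limma adjusted p = 0.235). Pkp2, named after its values were seen, had a log2 fold change of -0.28 (limma adjusted p = 0.0212). Its call was lost without WT 2 and without C3G KO 1, and that of Pkp4 with any sample left out, so that 4 of the 6 were lower when WT 2 or C3G KO 1 was left out. The 9 desmosome genes under the filter, epidermal desmogleins and desmocollins among them, had at most 0.420 TPM in any sample, reached by Evpl, and 3 of them were at 0 in all samples.

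Most other cadherins were under the filter in these cells. Only 6 of 37 passed it, and the highest value among the other 31 was 1.46 TPM, for Celsr2. Of the 6, 4 were lower in C3G KO by limma, beside 16.6% of all tested genes, and the median log2 fold change was -0.62, or -0.33 with length and GC content corrected, where the same 4 were lower, beside 14.2% of all. Fat1, a giant cadherin with a WT level close to that of Cdh1, had 61.9, 53.8 and 48.6 TPM in WT and 16.2 and 26.4 TPM in C3G KO, with a log2 fold change of -0.68 (limma adjusted p = 0.00197) that shrank to -0.34 (limma adjusted p = 0.0124) with length and GC content corrected. Protocadherin 1 (Pcdh1) had the largest fall of the list at -0.98 (limma adjusted p = 0.000509), and the planar polarity cadherin Celsr1 and calsyntenin 3 (Clstn3) had log2 fold changes of -0.75 and -0.55. The correction moved Celsr1 to -0.32 (limma adjusted p = 0.026), and with a replicate block added Fat1 and Celsr1 did not pass.

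Among 21 further catenins and adherens junction linkers, 18 passed the filter, 10 were lower and 1 was higher in C3G KO by limma (16.6% and 14.1% over all tested genes), and the median log2 fold change was -0.36. With length and GC content corrected, 7 of the 18 were lower and 2 higher and the median was -0.073, beside 0.033 over all genes tested, of which 14.2% were lower and 16.7% higher. As deposited, 15 were lower, beside 56.8% of all tested genes. Ajuba, a LIM protein that binds alpha-catenin, had 42.2, 39.5 and 35.1 TPM in WT and 6.90 and 10.7 TPM in C3G KO and a log2 fold change of -1.40 (limma adjusted p = 0.000127). Vinculin (Vcl), which reinforces alpha-catenin under tension, fell by 0.83 on the log2 scale (limma adjusted p = 0.000475). The scaffold ZO-1 (Tjp1) and the nectin Nectin2 both had a log2 fold change of -0.56, and afadin (Afdn), the actin linker of nectins, one of -0.45. Lima1, the gene of the actin-binding protein EPLIN that joins alpha-catenin, was the gene called higher, with 9.29, 7.25 and 6.50 TPM in WT and 5.89 and 11.0 TPM in C3G KO. Its scaled level rose in C3G KO, with a log2 fold change of 0.70 (limma adjusted p = 0.00805), but on the TPM as deposited its log2 fold change was 0.081 and did not pass (limma adjusted p = 0.767). Nectin3, named after its values were seen, was also above all WT samples after scaling, at 0.25, but did not pass (limma adjusted p = 0.0525). It passed with length and GC content corrected (0.25, limma adjusted p = 0.0427) and was at -0.40 as deposited (limma adjusted p = 0.152).

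Of the 10 genes of the beta-catenin destruction complex, all tested, 2 were lower and 1 was higher in C3G KO by limma, beside 16.6% and 14.1% of all tested genes, with a median log2 fold change of -0.035. Axin2, a scaffold of the complex and a common Wnt target gene, had 4.99, 4.09 and 3.59 TPM in WT and 0.610 and 1.26 TPM in C3G KO, a log2 fold change of -1.03 (limma adjusted p = 0.00133). The kinase gene Gsk3b had -0.31 (limma adjusted p = 0.0385), a call that the length and GC correction removed (limma adjusted p = 0.0651). Amer1 had 0.25 (limma adjusted p = 0.0456) after scaling and -0.21 on the TPM as deposited (limma adjusted p = 0.331), so its direction turned with the scale. With length and GC content corrected, Amer1 was at 0.45 (limma adjusted p = 0.00704). Its call was lost with any sample left out and that of Gsk3b with any but WT 3, while Axin2 stayed lower whichever sample was left out.

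Of 15 genes for cadherin processing, phosphatases and turnover, 14 passed the filter and 5 were lower in C3G KO by limma, beside 16.6% of all tested genes, with a median log2 fold change of -0.15. The count was 3 without WT 2 or without C3G KO 1, and 0 with the length and GC correction and a replicate block together. Furin, the protease that removes the cadherin propeptide, had a log2 fold change of -0.44. The receptor phosphatases Ptprf and Ptprj were at -0.50 and -0.46, and Ptprk, at -0.0096, did not pass. The calls of Furin and Ptprf were lost with length and GC content corrected (limma adjusted p 0.209 and 0.151).

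Of 7 genes of repressors that silence E-cadherin in epithelial-mesenchymal transition, 4 passed the filter. The 2 called lower in C3G KO by limma, Zeb2 and Twist1, passed it through WT alone, with no value of 1 TPM in C3G KO, and of the other 2 none was lower. Zeb2 had 2.33, 1.77 and 1.30 TPM in WT and 0.320 and 0.460 TPM in C3G KO (log2 fold change -0.69, limma adjusted p = 0.00704), and Twist1 had 1.17, 1.13 and 0.910 TPM in WT and 0.170 and 0.450 TPM in C3G KO. The Twist1 log2 fold change of -0.44 (limma adjusted p = 0.0209) lost its call once length and GC were corrected (limma adjusted p = 0.0502) and without WT 1, WT 2 or C3G KO 1. Zeb1 and Tcf3 had log2 fold changes of 0.0093 and 0.18 and did not pass, but these outcomes depended on the scale and the correction. On the TPM as deposited Zeb1 was lower at -0.51 (limma adjusted p = 0.0384) and Tcf3, at -0.46, did not pass (limma adjusted p = 0.1), while with length and GC content corrected Tcf3 was higher at 0.44 (limma adjusted p = 0.00495). The 3 repressors under the filter had at most 0.670 TPM, reached by Snai1.

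Promoter sequences from RefSeq (GRCm38.p6) were at hand for 4 of the 10 adhesion genes, Dsp, Jup, Ctnnb1 and Ctnnd1. Those of Dsp, Jup and Ctnnb1 are printed, because Dsp and Jup fell and Ctnnb1 did not pass. A feature these genes share can thus be seen beside both outcomes. Ctnnd1, which also fell, is not printed, and its counts are given below. Each line gives the 250 bases before an annotated start, 5′ to 3′ on the gene's strand, with the GC box letters GGGCGG or their reverse complement CCGCCC in capitals. The Dsp stretch is chr13:38151044-38151293 (plus strand), outside the exons of Dsp and across the exon of the antisense gene Gm10129. The Jup stretch is chr11:100397791-100398040 (minus strand), and that of the first Ctnnb1 start is chr9:120933150-120933399 (plus strand), where no exon is annotated.
Dsp: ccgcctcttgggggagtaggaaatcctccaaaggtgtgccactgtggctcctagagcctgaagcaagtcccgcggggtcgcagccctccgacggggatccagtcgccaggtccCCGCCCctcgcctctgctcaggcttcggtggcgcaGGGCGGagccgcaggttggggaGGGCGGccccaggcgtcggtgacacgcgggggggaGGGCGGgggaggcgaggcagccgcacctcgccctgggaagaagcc
Jup: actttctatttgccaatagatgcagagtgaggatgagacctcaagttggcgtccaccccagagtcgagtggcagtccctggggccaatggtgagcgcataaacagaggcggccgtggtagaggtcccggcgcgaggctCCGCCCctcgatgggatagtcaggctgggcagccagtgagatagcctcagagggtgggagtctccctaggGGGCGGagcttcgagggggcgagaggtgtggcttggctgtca
Ctnnb1: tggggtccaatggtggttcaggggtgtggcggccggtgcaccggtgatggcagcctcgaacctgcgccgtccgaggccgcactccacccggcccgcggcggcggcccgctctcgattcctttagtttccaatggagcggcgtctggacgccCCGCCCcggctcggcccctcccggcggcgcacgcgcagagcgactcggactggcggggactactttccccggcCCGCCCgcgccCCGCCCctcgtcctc
The Dsp stretch held 4 GC boxes, that of Jup 2 and that of Ctnnb1 3, and the Ctnnd1 stretches of both its annotated starts held 0. Of 32851 promoters, 32.7% held at least 1 such match in the same 250 bases. The E-box letters CAGGTG or CACCTG, which Snail and Zeb proteins can bind, were in none of these stretches, against 17.2% of all promoters. With the 50 bases after the start counted too, Dsp had 1 E-box match, and 20.2% of all promoters had at least 1. A match is a run of letters and not a shown binding site.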

How the data were processed

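RNA of 3 WT and 2 C3G KO samples of mouse ES cells had been sequenced. The deposited values are TPM per Ensembl transcript, made by the authors on GRCm38. The submitters' processing notes name bcl2fastq 2.20, FastQC 0.11.7, STAR 2.5.1b and RSEM 1.2.31. TPM keep no read numbers, so depth is unknown and the study's test on counts, DESeq2, was not run. Of 142647 transcripts, 141524 matched GENCODE M21, and their TPM were summed by symbol. Genes with at least 1 TPM in at least 2 samples were kept. The groups were compared with limma 3.58.1 (R 4.3.3), on log2(TPM + 1) after median-of-ratios scaling, with a mean-variance trend, two-sided, with Benjamini-Hochberg adjustment over 12518 genes and a threshold of 0.05. TPM as deposited were tested alike. There the prior degrees of freedom were infinite, so the spread of each gene by itself does not enter those p-values, and after scaling they were 3.11. The length and GC correction subtracted a loess trend with a span of 0.5 from each sample. Ratios of genes were compared by exact permutation. The procedure was tested on simulated data.

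The genes named were the 10 adhesion genes, Rapgef1 and, in each other list, up to 4 of the largest falls and of the largest rises past the threshold and the 2 genes with the highest mean TPM; others are marked as such, and 1 gene that this rule takes is not reported here. Members and lists were chosen with earlier results of these data known. Alternatives were other scalings, a pseudocount of 0.1 or 5, a filter of 5 TPM or none, limma without the trend, each sample left out in turn and a replicate block, alone and with the length and GC correction. Python 3.11.15 with pandas 2.3.3 made the tables, and matplotlib 3.10.9 drew the figures.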

Additional observations from a re-analysis of the deposited data

How the results depend on the processing

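Of 174 recomputed log2 fold changes of the 10 adhesion genes and Rapgef1, 151 kept their direction and side of the threshold, 13 lost the call, 6 gained it and 4, all of Ctnnb1 and none past the threshold, changed sign. Cdh2, Cdh3, Ctnnd1, Dsp and Dsg2 kept their call under every alternative in which they were tested. The count of adhesion genes lower in C3G KO ranged from 6 to 10, and the count over all tested genes moved too. It was 10 as deposited, beside 56.8% of all tested genes, and 7 without WT 2, beside 1323 of 12518. The replicate block with the length and GC correction gave 6 of 10, beside 1341 of 12518. With the 5 TPM filter, 6 of the 8 adhesion genes tested were lower, beside 1348 of 7525. Cdh1 passed on the TPM as deposited (-0.98), with one protein-coding total (-0.51) and with quantile normalization (-0.45), and ranged from -0.48 to -0.11 with a sample left out. Cdh13 did not pass with quantile normalization (-0.19), and ranged from -0.61 to -0.49 with a sample left out. Ctnnb1 passed as deposited (-0.76) and with quantile normalization (-0.46), and ranged from -0.18 to 0.048 with a sample left out. Ctnna1 did not pass without a filter (-0.36), and ranged from -0.49 to -0.27 with a sample left out. The numbers of the samples showed no clear pairing (correlation of deviations from the group means -0.18 for number 1 and 0.18 for number 2). The deviations of the 2 C3G KO samples mirror each other, so these values cannot decide whether the samples were paired. With the replicate block, Ctnnb1 was at 0.042 and Ctnna1 at -0.36 and not past the threshold, and with the replicate block and the length and GC correction together Ctnnb1 was at 0.074, Ctnna1 at -0.28 and Jup at -0.33, the last 2 not past it. All tested genes higher in C3G KO numbered 181 as deposited, 707 with one protein-coding total, 1122 with the 5 TPM filter, which tests fewer genes, and 890 to 1559 with a sample left out (890 without WT 2, 906 without C3G KO 1, 964 without C3G KO 2). Those lower numbered 7109, 3732, 1348 and 1323 to 1844 (1323 without WT 2, 1348 without C3G KO 1), and 1341 with the replicate block and the length and GC correction. As deposited, limma called 0 junction linkers and 0 destruction complex genes higher (0 at an unadjusted p under 0.05 in both lists), 7 of 10 destruction complex genes lower and 13 of 14 processing genes lower, beside 56.8% of all tested genes. After the length and GC correction, these were 2 and 2 higher, 1 lower and 3 lower, and of the repressors 1 was higher and 1 lower, beside 16.7% higher and 14.2% lower of all tested genes. The log2 difference of Cdh3/Cdh1 ranged from -0.64 to -0.37, that of Ctnnd1/Cdh1 from -0.48 to -0.18, of Jup/Ctnnb1 from -0.73 to -0.29, of Ctnna1/Ctnnb1 from -0.55 to -0.097 and of Ctnnb1/Cdh1 from -0.069 to 0.54, with a change of sign, with a sample left out. With 1 C3G KO sample left, it was assumed to vary like the WT samples. The cause of these changes was not tested. Depth is unknown, so counting error could not be given for genes near 1 TPM.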
